A study of Sus scrofa with 24 samples.

Results

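The genes described here are 2 lymphoid chemokines, CCL21 and CCL19, and 2 surface receptors of leukocytes, MRC1 and PTPRC, in skeletal muscle of pigs before birth and in adulthood. They were taken as the probe sets whose gene symbol in the array annotation is one of the 4 names. Each name had exactly 1 probe set, so 4 of the 23999 probe sets tested, and 4 of the 6765 genes with a symbol, are followed below. RNA came from longissimus dorsi, the long muscle of the back, and was hybridised to Affymetrix GeneChip Porcine Genome Arrays, 1 pool of RNA to an array. Muscle of Pietrain pigs (Pi), a heavily muscled breed, was set beside muscle of German Landrace pigs (DL). Fetal muscle of both breeds was taken 35, 63 and 91 days after conception (dpc, days post conception), and adult muscle was taken too, which gives 8 groups of 3 pools, named a, b and c. No treatment or genetic alteration is named in the labels. The labels do not give how many animals went into each pool, of which sex, or how old the adults were. A p-value below therefore weighs a difference against variation from pool to pool, which may be technical, and sex or age, if they differed, cannot be told apart from breed. A free-text label calls the animals peripubertal even for the fetal pools, and the stages used here come from the titles and the stage label. Titles of the 35 dpc pools alone carry a letter K that the labels do not explain. Whatever it marks cannot be told apart from that stage.

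CCL21 and CCL19 are secreted chemokines that share the receptor CCR7 and guide T cells and mature dendritic cells. CCL21 is made by the endothelium of lymphatic vessels and by the stroma of lymph nodes, and CCL19 is made by lymph node stroma and by mature dendritic cells. MRC1 (CD206) is a mannose-binding endocytic receptor of tissue macrophages that is also found on lymphatic and some other endothelium, and PTPRC (CD45) is a receptor tyrosine phosphatase carried by nearly all nucleated blood cells and by the leukocytes that enter tissues, where it sets the activity of Src-family kinases.

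All 15 measured markers of skeletal muscle were above background on every array, and their mean per array lay between 9.87 and 13.92 on the log2 scale, so the labelled tissue carried its markers. Intensities are given on a log2 scale and set no gene's level against another's. The background ceiling of an array is the highest signal among its 23 control probe sets that have no target in the sample, and it lay between 2.31 and 2.69. Where a signal is at or below that ceiling the gene was not above background, and no fold is given when both sides of a comparison are there. Between 21.3% and 32.2% of probe sets lay at background on an array. Adult Pi pool b stood apart from the other adult pools in this respect, with 23.8% of probe sets at background against at least 30.8%.

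CCL21 was at background in both breeds at 35 dpc, with 2.18, 2.18 and 2.20 in the Pi pools and 2.20, 2.22 and 2.21 in the DL pools. At 63 dpc the Pi pools had 2.20, 2.19 and 2.19 and the DL pools 2.59, 2.18 and 2.18. The probe set was bright at 91 dpc, with 8.22, 8.49 and 8.80 in Pi and 9.30, 9.24 and 8.33 in DL. Every pool of 91 dpc therefore lay far above every earlier pool, and 11 of the 12 earlier pools were at background, DL pool a of 63 dpc being the exception. In adults the Pi pools had 6.88, 7.58 and 7.50 and the DL pools 4.98, 4.82 and 6.44. Adult pools of both breeds lay below all pools of 91 dpc, and the adult Pi pools lay above the adult DL pools without overlap. In order of level, DL and Pi at 91 dpc came first and overlapped, adult Pi followed, then adult DL, and the 4 groups of 35 and 63 dpc had no order among them.

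CCL19 was a signal of 3 pools. In the 18 fetal pools it lay between 2.02 and 2.40, and 1 of them, DL pool a of 63 dpc, exceeded its ceiling, by 0.07. Adult Pi pools had 6.60, 4.95 and 5.58. Adult DL pools had 2.05, 2.27 and 2.05, all at background. The adult Pi group stood above every other group without overlap, and the other 7 groups have no order.

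MRC1 was above background in all 18 fetal pools. At 35 dpc the Pi pools had 7.02, 6.99 and 6.98 and the DL pools 7.52, 7.30 and 7.35. At 63 dpc the values were 5.71, 6.69 and 6.30 in Pi and 6.71, 6.14 and 6.46 in DL. All pools of 63 dpc lay below all pools of 35 dpc, and the breeds overlapped at 63 dpc but not at 35 dpc, where the DL pools were the higher. At 91 dpc the Pi pools had 7.37, 7.71 and 7.09 and the DL pools 6.20, 6.28 and 6.61. In adults the Pi pools had 5.02, 5.80 and 5.91 and the DL pools 2.19, 4.50 and 2.27. Adult Pi muscle was above background in every pool, while adult DL muscle was above it in pool b alone. By group mean, DL of 35 dpc and Pi of 91 dpc were level and overlapped, and Pi of 35 dpc came next. Below it DL of 63 dpc, DL of 91 dpc and Pi of 63 dpc overlapped one another. Adult Pi and adult DL had the lowest means, but adult Pi pools b and c exceeded Pi pool a of 63 dpc.

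PTPRC was at or barely over background before birth, between 2.20 and 2.57, with 8 of the 18 fetal pools above their ceiling by at most 0.22. Adult Pi pools had 5.26, 6.37 and 6.34. Adult DL pools had 3.30, 5.49 and 3.53. All 6 adult pools lay above all fetal pools. The adult breeds overlapped in a single pair, as DL pool b exceeded Pi pool a.

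**Figure D1:**
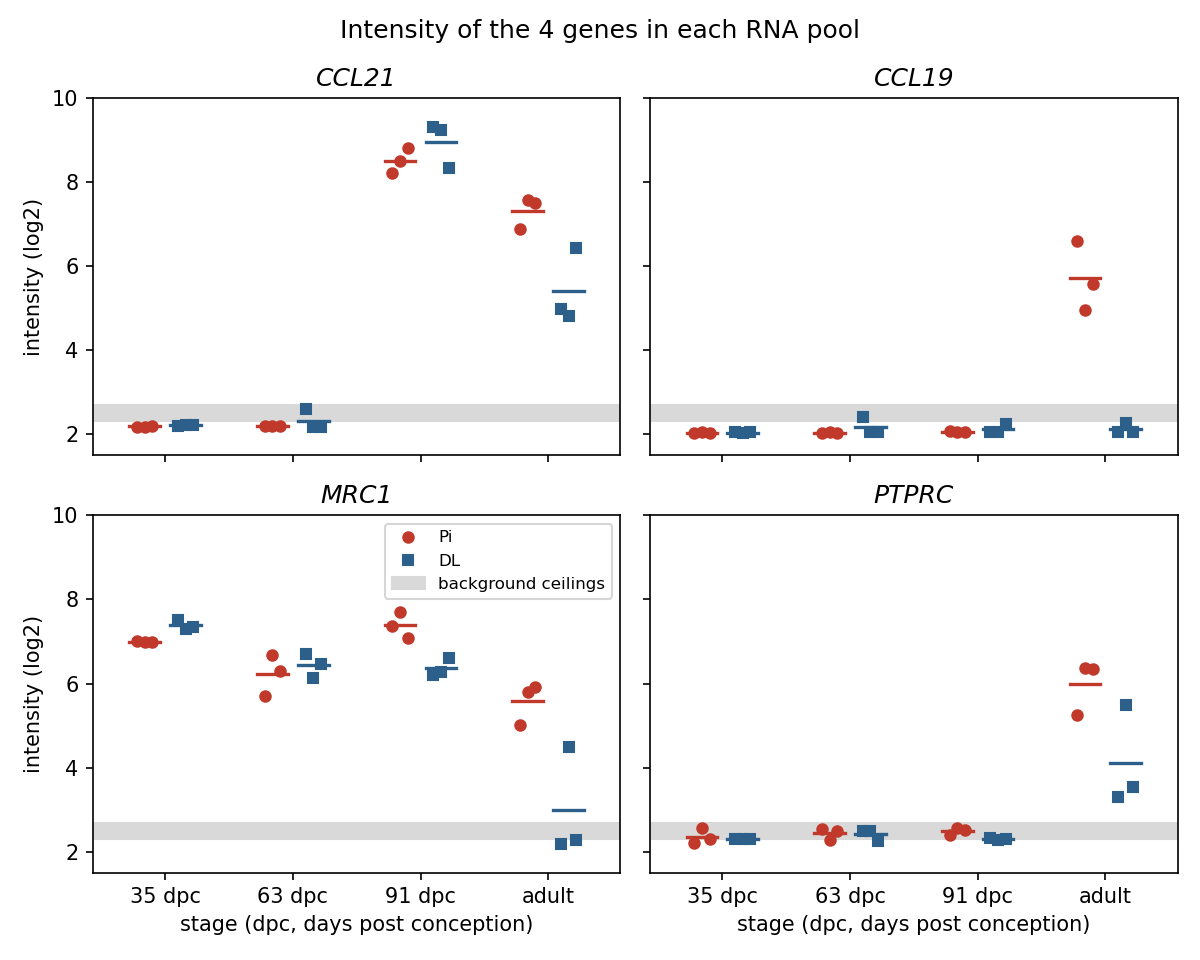
Log2 intensity of CCL21, CCL19, MRC1 and PTPRC (vertical axis) in each of 24 RNA pools by stage (horizontal axis), Pi pools as red circles to the left of DL pools as blue squares, with group means as short lines and the range of the background ceilings, 2.31 to 2.69, as a grey band. CCL21 leaves the band at 91 dpc, CCL19 in adult Pi alone, and PTPRC in adults, while MRC1 is lowest in adult DL, where 2 of the 3 pools lie at background.

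Between 63 and 91 dpc CCL21 rose in muscle of both breeds. The fitted rise was 6.47 ± 0.23 on the log2 scale (standard error of the limma fit, 6 pools of 91 dpc against 6 of 63 dpc, adjusted p = 1.92e-12), a value that is not exact, as 5 of the 6 pools of 63 dpc were at background. In Pi, whose pools of 63 dpc were all at background, the intensity of 91 dpc was at least 71.6-fold that ceiling. In DL the fitted rise was 6.64 ± 0.33 (limma, adjusted p = 3.57e-10). Within Pi 11.6% of all probe sets passed this step, and within DL 10.8%. The exact two-sided permutation test over the pools, 6 against 6, gave p = 0.00216, the smallest it can give, or 0.00519 adjusted over the 12 such tests. The breeds' rises did not differ by the test of the difference, Pi minus DL being -0.33 ± 0.46 (limma, adjusted p = 1.0), a test that 0.0917% of probe sets passed. In muscle taken whole, more cells of a type and more RNA per cell cannot be told apart, here or in any result below. Of all probe sets, 18.3% passed the test in this step and 8.88% rose, and CCL21 was the 1 member among the 4 that passed. MRC1 was 0.54 ± 0.31 higher at 91 dpc than at 63 dpc without passing (limma, adjusted p = 0.288; exact permutation p = 0.10173, adjusted 0.1744). Within Pi the difference of MRC1 was 1.15 ± 0.44 and its pools did not overlap (limma, adjusted p = 0.107). Within DL it was -0.07 ± 0.44 (limma, adjusted p = 1.0). CCL19 was at background in all of these 12 pools but DL pool a of 63 dpc, and PTPRC exceeded it by at most 0.22.

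The other measured genes of the lymphoid chemokine system were a mixed group in this step. The list holds CCL21 and CCL19, their receptor, related chemokines and genes of lymphoid tissue formation, and 14 of its 27 genes had a probe set. Of the 14, 4 rose and 0 fell, against 8.88% rising among all probe sets, with a median change of 0.03 against 0.00 over all probe sets. Besides CCL21, LTB, a lymphotoxin chain needed to form lymph nodes, rose by 2.07 ± 0.27 (limma, adjusted p = 1.75e-05). S1PR1, a sphingosine-1-phosphate receptor that lets lymphocytes leave lymphoid organs, rose by 1.39 ± 0.10 (limma, adjusted p = 1.39e-08). The remaining one was CXCR4, the receptor of CXCL12, at 0.74. CCR7, the shared receptor, was above background in 1 pool, of DL, at 91 dpc and in 0 pools of either breed at 63 dpc. Of 9 lymphatic endothelial markers, CCL21 included, 4 rose and 1 fell, the tissue factor pathway inhibitor TFPI, and the median was 0.53. Of 18 blood endothelial markers 12 rose and 0 fell, with a median of 1.19. Of 19 T and NK cell markers 0 passed in either direction. The part of any of these cell types in the rise of CCL21 was not tested.

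Between 35 and 63 dpc MRC1 was the member that moved. It fell by 0.86 ± 0.31 on the log2 scale (MRC1, -0.86; limma, 6 pools of 63 dpc against 6 of 35 dpc, adjusted p = 0.0297), and the pools of the stages did not overlap. The exact permutation p was 0.00216, adjusted 0.00519. Of all probe sets 44.2% passed this step, 22.3% rising and 22% falling, so 1 passing member of 4 is no more than the background. The call ended with 4 of the 12 single pools left out (adjusted p up to 0.0823) and with the GAPDH control difference as a covariate (-0.78, limma, adjusted p = 0.0664). Scaled to hybridisation controls the value was -1.67 (limma, adjusted p = 8.1e-05), with the median of all probe sets at -0.81. The GAPDH difference, the 3′ minus 5′ signal of GAPDH and a sign of RNA integrity, lay between 0.67 and 0.84 at 63 dpc and between 0.52 and 1.21 at 35 dpc. Other controls of this kind, not used as covariates, separated the stages. The actin difference lay between 1.21 and 1.55 at 63 dpc and between 2.12 and 2.68 at 35 dpc. Another GAPDH pair lay between 0.89 and 1.14 at 63 dpc and between 1.36 and 1.79 at 35 dpc. Of 21 macrophage markers 8 rose, 1, MRC1, fell and the other 12 did not pass, with a median of 0.47. Among those that did not pass, SPP1, osteopontin, had -1.39 ± 0.88, LYVE1 -0.58 ± 0.38 and CTSS, cathepsin S, -0.26 ± 0.18. TYROBP, a signalling adaptor of myeloid cells, rose by 2.14 ± 0.25 (limma, adjusted p = 9.65e-07), and C1QA, a chain of complement C1q made by macrophages, rose by 1.68 ± 0.44 (limma, adjusted p = 0.00395). Of 19 pan-leukocyte markers 6 rose and 0 fell, with LCP2, an adaptor of leukocyte signalling, at 2.19 ± 0.37 (limma, adjusted p = 8.44e-05). In the chemokine list CXCL13, the B cell chemokine, fell (-2.75 ± 0.29, limma, adjusted p = 2.38e-07), while CCL21 and CCL19 were at background in all of these 12 pools but DL pool a of 63 dpc.

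All 4 genes passed the test between 91 dpc and adulthood, the chemokines in opposite directions and the receptors likewise. With 57.4% of all probe sets passing in this step, 30.8% rising and 26.6% falling, the count itself is not a result about these genes. CCL21 fell by 2.36 ± 0.23 (CCL21, -2.36; limma, 6 adult pools against 6 of 91 dpc, adjusted p = 7.63e-08), or 5.14-fold, and with the GAPDH covariate the value was -3.50 (adjusted p = 0.000462). MRC1 fell by 2.60 ± 0.31 (MRC1, -2.60, limma, adjusted p = 8.49e-07), or 6.05-fold by the fit. That value is not exact either, as adult DL pools a and c were at background. PTPRC rose by a fitted 2.65 ± 0.27 (limma, adjusted p = 1.43e-07), which is not exact, as the pools of 91 dpc were at background or within 0.22 of it. CCL19 rose by 1.83 ± 0.18 (limma, adjusted p = 5.52e-08), but this mean joins adult Pi pools with a clear signal and adult DL pools with none, and the exact permutation test over the pools did not pass (p = 0.05411, adjusted 0.10823). For the other 3 genes the exact permutation p was 0.00216, adjusted 0.00519. The call for MRC1 was lost with the GAPDH covariate, at -1.90 (limma, adjusted p = 0.143). The GAPDH difference lay between -0.61 and -0.39 in adult pools and between 0.25 and 1.31 in pools of 91 dpc, so it moves with the stage. The actin difference lay between 2.28 and 2.59 in adult pools and between 1.41 and 2.99 in pools of 91 dpc. Only DL pool c of 91 dpc, at 2.99, made the stages overlap, as the other pools of 91 dpc reached at most 2.20. The other GAPDH pair, not used as a covariate, lay between 0.11 and 0.20 in adult pools and between 0.71 and 1.51 at 91 dpc. By it the stages did not overlap.

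Within breeds this step had unlike sizes. In Pi, CCL21 fell (-1.18 ± 0.33, limma, adjusted p = 0.0061) and MRC1 fell (-1.81 ± 0.44, adjusted p = 0.00204). With the GAPDH covariate CCL21 in Pi had -2.60 (limma, adjusted p = 0.0288), and MRC1 in Pi had -0.95 and lost the call (adjusted p = 0.67). In Pi, PTPRC rose by 3.50 ± 0.39 (limma, adjusted p = 6.02e-07) and CCL19 was at least 10.2-fold higher in adults than the ceiling of 91 dpc (limma, adjusted p = 1.14e-09). In DL, CCL21 fell (-3.54 ± 0.33, limma, adjusted p = 7.37e-08), MRC1 fell (-3.38 ± 0.44, adjusted p = 4.14e-06), PTPRC was at least 3.33-fold higher in adults (adjusted p = 0.000808), and CCL19 was at background at both stages. The fall of MRC1 in DL is not exact, as adult DL pools a and c were at background. The DL call of PTPRC was lost on the compared arrays alone (1.81, limma, adjusted p = 0.0814) and with the GAPDH covariate (1.83, adjusted p = 0.0599), under which CCL21 in DL had -4.40. Without adult DL pool b the DL steps were -4.14 for MRC1 and 1.12 for PTPRC, both past the test. In Pi 47.8% of all probe sets passed this step, and in DL 45.4%. The test of the difference between the breeds' steps, Pi minus DL, passed for CCL21 at 2.36 ± 0.46 (limma, adjusted p = 0.0117) and for CCL19 at 3.64 ± 0.35 (adjusted p = 2.07e-05). It did not pass for MRC1 at 1.57 ± 0.62 (limma, adjusted p = 0.209) or PTPRC at 1.69 ± 0.55 (adjusted p = 0.124). Of all probe sets 2.66% passed it. Without adult DL pool b, the DL pool with the highest MRC1 and PTPRC, both passed it, MRC1 at 2.32 (limma, adjusted p = 0.00274) and PTPRC at 2.38 (adjusted p = 0.000451). Without adult Pi pool a, PTPRC passed at 2.05 (limma, adjusted p = 0.0448). Fitted on the arrays of 91 dpc and adults alone, CCL21 kept its value of 2.36 and lost the call (limma, adjusted p = 0.181), and with the GAPDH covariate it had 1.80 (adjusted p = 0.0997).

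The gene lists around the members are to be read against the 30.8% of all probe sets that rose and the 26.6% that fell in this step. Of the 14 genes of the lymphoid chemokine system 2 rose and 6 fell, with a median of -0.05 against 0.06 over all probe sets. CXCR4 fell (-3.35 ± 0.11, limma, adjusted p = 3.05e-14), as did LTB (-3.23 ± 0.27, adjusted p = 6.73e-09). CCR7 was above background in 0 adult Pi pools and in 1 adult DL pool. Among other chemokines CCL5, which draws T cells, rose by 3.83 ± 0.35 (limma, adjusted p = 2.70e-08), and CXCL9, an interferon-induced chemokine, rose by 3.14 ± 0.32 (adjusted p = 1.04e-07). PTPRC rose with 9 others of the 19 pan-leukocyte markers while 2 fell, and the median was 0.73. Of 19 T and NK cell markers 8 rose and 0 fell, led by GNLY, a granule protein of cytotoxic lymphocytes, at 3.42 ± 0.37 (limma, adjusted p = 2.39e-07). Of 15 markers of MHC class II and dendritic cells 10 rose and 0 fell. MRC1 fell with 7 others of the 21 macrophage markers while 4 rose, and the median was 0.01. One of those that fell was LYVE1, a hyaluronan receptor of lymphatic endothelium and of some macrophages (-2.78 ± 0.38, limma, adjusted p = 4.43e-06). CCL21 fell with 7 others of the 9 lymphatic endothelial markers while 1 rose, and the median was -2.36. Of 18 blood endothelial markers 10 fell and 2 rose, with a median of -1.27. As quantile-normalised values follow a probe set's rank on its array, a fall here is a fall relative to the other probe sets.

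Across the whole span, adults against 35 dpc, both chemokines and PTPRC were higher in adults and MRC1 was lower. CCL21 was at least 15.7-fold higher in adults than the ceiling of 35 dpc, where it was at background (limma fit 4.17 ± 0.23, adjusted p = 1.29e-11). PTPRC was higher by a fitted 2.72 ± 0.27 (limma, adjusted p = 5.73e-08), not exact, as 5 of the 6 pools of 35 dpc were at background. MRC1 fell (-2.91 ± 0.31, limma, adjusted p = 1.11e-07), not exact, as adult DL pools a and c were at background. CCL19 was higher by the fit (1.88 ± 0.18, limma, adjusted p = 2.14e-08), again from adult Pi pools alone. With the GAPDH covariate MRC1 had -2.17 and lost the call (limma, adjusted p = 0.0863), and CCL21 had 2.95. Scaled to hybridisation controls, with the median of all probe sets at -1.08, the values were 3.01 for CCL21, 0.72 for CCL19, -4.08 for MRC1 and 1.56 for PTPRC, all past the test. Of all probe sets 66.5% passed this comparison.

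All 4 genes were higher in adult Pi muscle than in adult DL muscle, while 6.33% of all probe sets passed this comparison and 2.89% passed as higher. The members were chosen with earlier results of these data known, so their number set beside that share is a description and no test. CCL19 was at least 8.52-fold higher in Pi (limma fit 3.59 ± 0.25, 3 Pi pools against 3 DL pools, adjusted p = 1.31e-07). MRC1 was higher by 2.59 ± 0.44 (limma, adjusted p = 0.00152), a fitted 6.03-fold that rests on 2 DL pools at background and 1 above it. CCL21 was higher by 1.91 ± 0.33 (limma, adjusted p = 0.00183), or 3.75-fold. PTPRC was higher by 1.89 ± 0.39 (limma, adjusted p = 0.00687), or 3.69-fold, with the single overlap named above. For CCL21, CCL19 and MRC1 all 3 Pi pools exceeded all 3 DL pools, as they did for 7.6% of all probe sets, and a test of 3 pools against 3 by permutation cannot go below 0.1.

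These 4 calls rest on a spread estimated over all 24 arrays, and adult pools varied more than fetal ones. The pooled standard deviation between pools was 0.69 in adults and 0.27 in fetuses for CCL21, 0.60 and 0.10 for CCL19, 0.99 and 0.28 for MRC1, and 0.96 and 0.11 for PTPRC. Fitted on the 6 adult arrays alone, none of the 4 passed: CCL19 had an adjusted p of 0.128 by limma, CCL21 of 0.308, MRC1 of 0.325 and PTPRC of 0.458, with 21 probe sets passing in place of 1519. The call for PTPRC also ended under array weights (1.82, limma, adjusted p = 0.0525). With each adult pool left out in turn, all 4 genes passed in all 6 fits. Without Pi pool b, the array with the fewest probe sets at background, CCL21 was 1.78 higher, CCL19 3.97, MRC1 2.48 and PTPRC 1.70. Without DL pool b, the DL pool with the highest MRC1 and PTPRC, MRC1 was 3.35 higher and PTPRC 2.58, each more than 1.5 times the fold with all pools. The GAPDH difference of adults lay between -0.61 and -0.55 in Pi and between -0.46 and -0.39 in DL, and all 4 calls held with it as a covariate. The actin difference, not used as a covariate, lay between 2.41 and 2.59 in Pi and between 2.28 and 2.35 in DL.

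Before birth no member differed between breeds by the test. At 35 dpc MRC1 differed by -0.40 ± 0.44, Pi minus DL (limma, adjusted p = 0.954), with 4.03% of all probe sets passing. At 63 dpc the difference of MRC1 was -0.20 ± 0.44 (limma, adjusted p = 1.0), with 1.37% passing. At 91 dpc, with 2.72% passing, CCL21 differed by -0.45 ± 0.33 (limma, adjusted p = 0.649). Without DL pool c it differed by -0.76, again without passing. That pool had a GAPDH difference of 1.16, against 0.28 and 0.25 in DL pools a and b. MRC1 was 1.02 ± 0.44 higher in Pi at 91 dpc, with no overlap of pools, and did not pass (limma, adjusted p = 0.27). Averaged over the 4 stages, with 6.29% of probe sets passing, CCL19 was higher in Pi by 0.85 ± 0.12 (limma, adjusted p = 0.000667) and MRC1 by 0.76 ± 0.22 (adjusted p = 0.0471). For CCL19 that mean is the adult difference spread over stages at background, and for MRC1 the call was lost in 19 of the 24 fits that left out a pool and with the GAPDH covariate (0.63, limma, adjusted p = 0.251). CCL21, at 0.33 ± 0.16 (limma, adjusted p = 0.289), and PTPRC, at 0.54 ± 0.19 (adjusted p = 0.114), did not pass.

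**Figure D2:**
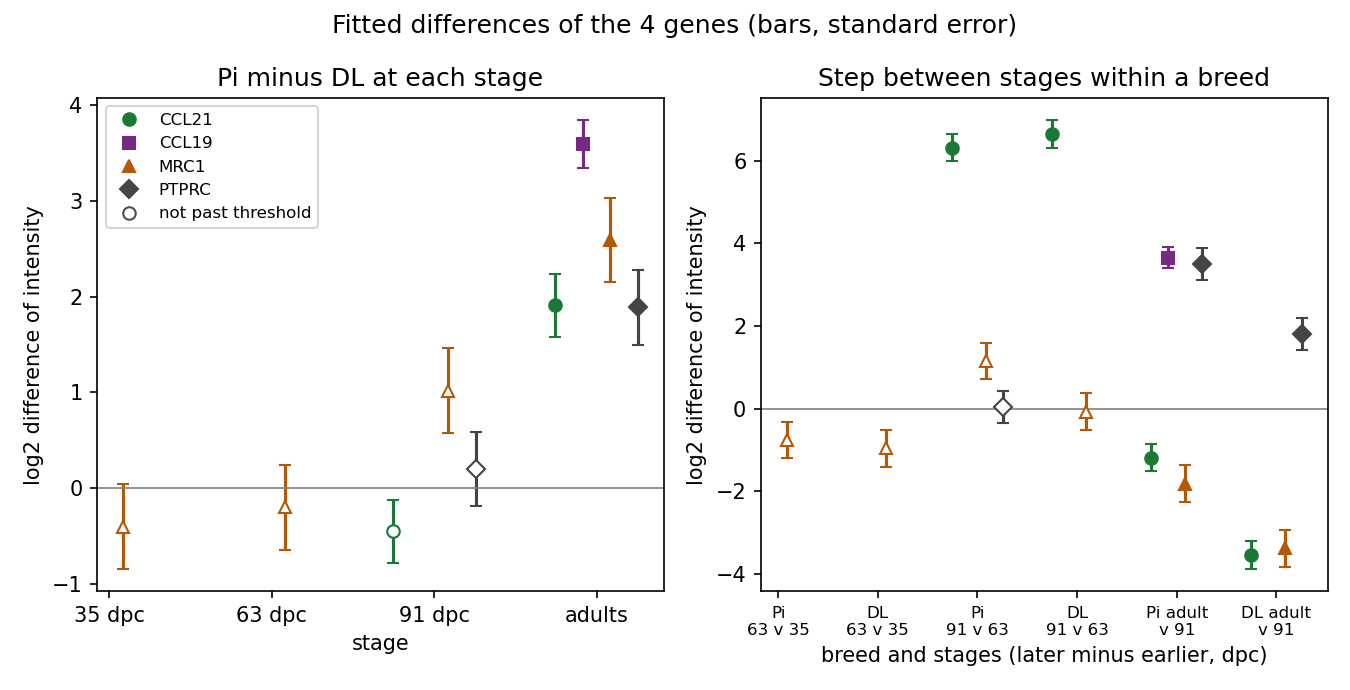
Fitted log2 differences of the 4 genes with standard errors as bars, Pi minus DL at each stage on the left and later minus earlier stage within each breed on the right, filled where the adjusted p is under 0.05 and left out where no group of the comparison was above background in all its pools. On the left every filled symbol is in adults, from 1.89 for PTPRC to 3.59 for CCL19; on the right CCL21 rises by over 6 in both breeds at 91 dpc and then falls by 1.18 in Pi and 3.54 in DL.

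Markers of other cells in adult muscle are given beside these differences. Their counts are to be read against the 6.33% of all probe sets that passed between adult breeds and the 2.89% that passed as higher. Of the 19 pan-leukocyte markers 3 were higher in Pi and 0 lower: PTPRC itself, LCP1, an actin bundler of leukocytes (2.47 ± 0.49, limma, adjusted p = 0.00562), and LAPTM5, a lysosomal protein of blood cells (0.69 ± 0.14, adjusted p = 0.00687). Their median difference was 1.05 against -0.01 over all probe sets, and the mean level of the list ran between 5.33 and 6.03 in adult Pi pools and between 4.69 and 5.05 in adult DL pools. PTPRCAP, the protein that associates with CD45, was 1.52 higher in Pi and CORO1A, a leukocyte coronin, 1.65, and neither passed (limma, adjusted p = 0.192 and 0.208). Of 21 macrophage markers 2 were higher and 0 lower, MRC1 and C1QC (0.59 ± 0.16, limma, adjusted p = 0.0378), with a median of 0.60. The mean level of that list ran between 5.62 and 6.51 in adult Pi pools and between 4.97 and 5.75 in adult DL pools. CD163, a haemoglobin scavenger receptor of macrophages, averaged 7.90 in Pi and 6.83 in DL without passing (limma, adjusted p = 0.145), and SIGLEC1 and MARCO were at background in all adult pools.

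The counts of the lists below, too, stand beside 2.89% of all probe sets that passed as higher in adult Pi. Of 9 lymphatic endothelial markers 1 was higher in adult Pi, CCL21 itself, and 0 lower, with a median of 0.73. LYVE1 differed by 0.11 (limma, adjusted p = 0.989) and PDPN, podoplanin, by -0.21 (adjusted p = 0.839). Of 18 blood endothelial markers 1 was higher, PECAM1 (0.40 ± 0.10, limma, adjusted p = 0.0212). Of the lymphoid chemokine system 2 of 14 were higher, CCL21 and CCL19, and 0 lower, with a median of 0.03. CCR7 had 2.13 in Pi and 3.24 in DL on average, above background in 0 Pi pools and 1 DL pool. Of 15 other chemokines and receptors 1 was higher, CXCL16, a transmembrane chemokine (2.65 ± 0.57, limma, adjusted p = 0.00929). Among T and NK cell markers GNLY was higher (2.15 ± 0.52, adjusted p = 0.0183), 1 of 19. Among markers of MHC class II and dendritic cells CIITA, the transactivator of MHC class II genes, was higher (2.62 ± 0.57, adjusted p = 0.00929), 1 of 15. Of 6 B and plasma cell markers 1 was higher, XBP1, which is not restricted to those cells, and of 9 neutrophil and mast cell markers 0 passed. Of 4 red cell markers 1 was higher, ALAS2, the haem synthesis enzyme of red cell precursors (2.85 ± 0.76, adjusted p = 0.032). Of 12 fibroblast and adipocyte markers 0 passed, and of 15 muscle markers 1 was lower, DES, the intermediate filament protein desmin (-0.68 ± 0.11, adjusted p = 0.00128). The part of leukocytes, lymphatic vessels, blood or lymph node tissue in the breed differences of the 4 genes was not tested.

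**Figure D3:**
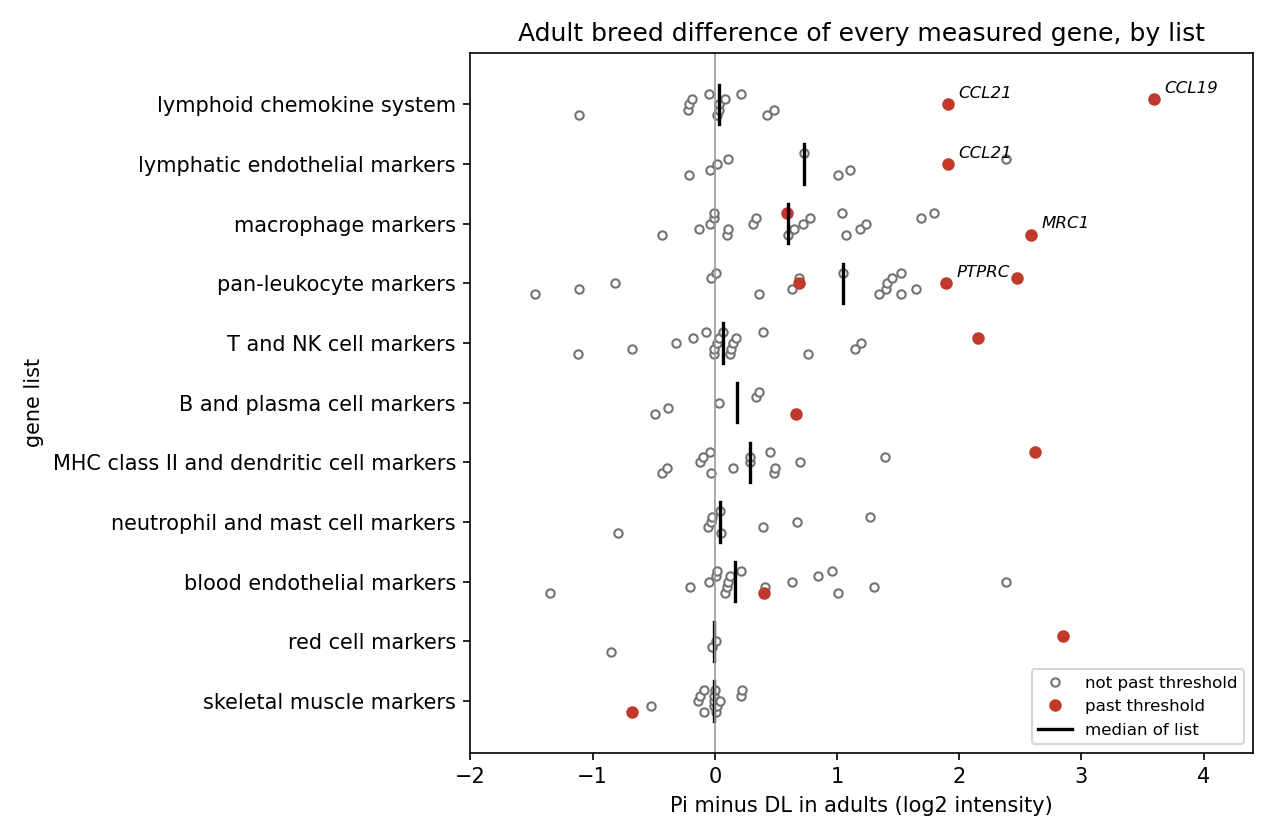
Log2 difference between adult Pi and adult DL muscle (horizontal axis) of every measured gene in 11 lists (vertical axis), filled red where limma's adjusted p is under 0.05, with list medians as black bars and the 4 genes named. The medians of pan-leukocyte (1.05), lymphatic endothelial (0.73) and macrophage markers (0.60) lie to the right of 0, while most of their genes do not pass.

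The narrower families of the receptors were sparsely measured. Among all probe sets 30.8% rose and 26.6% fell between 91 dpc and adults, and 6.33% passed between adult breeds. Of 6 mannose receptor family and lectin genes with a probe set, 2 fell between 91 dpc and adults, MRC1 among them. The 2 that rose were CD209, the DC-SIGN lectin (1.87 ± 0.53, limma, adjusted p = 0.00561), and LGALS3, galectin-3 (1.16 ± 0.26, adjusted p = 0.000778). MRC1 was the 1 that passed between adult breeds. Of 9 signalling partners of CD45, the list holding PTPRC itself, 4 rose and 3 fell in that step. Among those that fell were the Src-family kinases FYN (-2.83 ± 0.18, limma, adjusted p = 1.53e-10) and LYN (-2.36 ± 0.54, adjusted p = 0.000998), on which CD45 acts. Of 3 receptor tyrosine phosphatases PTPRC rose and PTPRA, which is widely expressed, fell (-2.38 ± 0.27, adjusted p = 3.86e-07).

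The patterns of presence were rare on the array. CCL19 is 1 of 12 probe sets, 0.05% of the 23999, that were above background in all 3 adult Pi pools and in at most 1 of the other 21 arrays. The mirrored pattern, adult DL in place of adult Pi, was met by 8 probe sets. CCL21 is 1 of 10 probe sets, 0.0417%, above background on all 12 arrays of 91 dpc and adults and on at most 1 of the 12 earlier ones. These patterns were written down from the members' values, so the counts are descriptions.

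For each gene the 5 probe sets of other genes with the highest Pearson correlation over the 24 arrays were listed among 9083 candidates, and as the arrays cluster by stage and share their normalisation these correlations only describe. CCL21 was most like S1PR1 (r = 0.961, and 0.935 and 0.91 for its other probe sets), RFTN1 (0.947) and CEACAM16 (0.932). The probe sets of S1PR1 had the same sign between adult breeds but unlike sizes. The most alike was higher in Pi (0.85, limma, adjusted p = 0.00984), as was the next (0.42, adjusted p = 0.0437). The brightest did not pass (0.21, limma, adjusted p = 0.442). CCL19 was most like LOC100621559 (0.943), KANK3 (0.931), and DPYS, UBE2C and GOLGA7 (0.926 each). As CCL19 had a clear signal in adult Pi alone, picking by likeness to it fixes that these 5 are higher there. They exceeded adult DL by 0.52 (DPYS) to 3.37 (KANK3), which describes the picked genes and is no test. UBE2C had 5.34 in adult Pi and at most 2.66 in any other group. MRC1 was most like PPP1R21 (0.914), ST8SIA4 (0.908), FAM129A (0.903), SDAD1 (0.897) and TMEM254 (0.892), of which none stands in the macrophage list. PTPRC was most like PON3 (0.947), GNLY (0.942), A2M (0.934), ASCL2 (0.933) and GUCA2A (0.931). PON3 lay near 2.2 in every fetal group, at 8.67 in adult Pi and at 6.70 in adult DL.

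**Figure D4:**
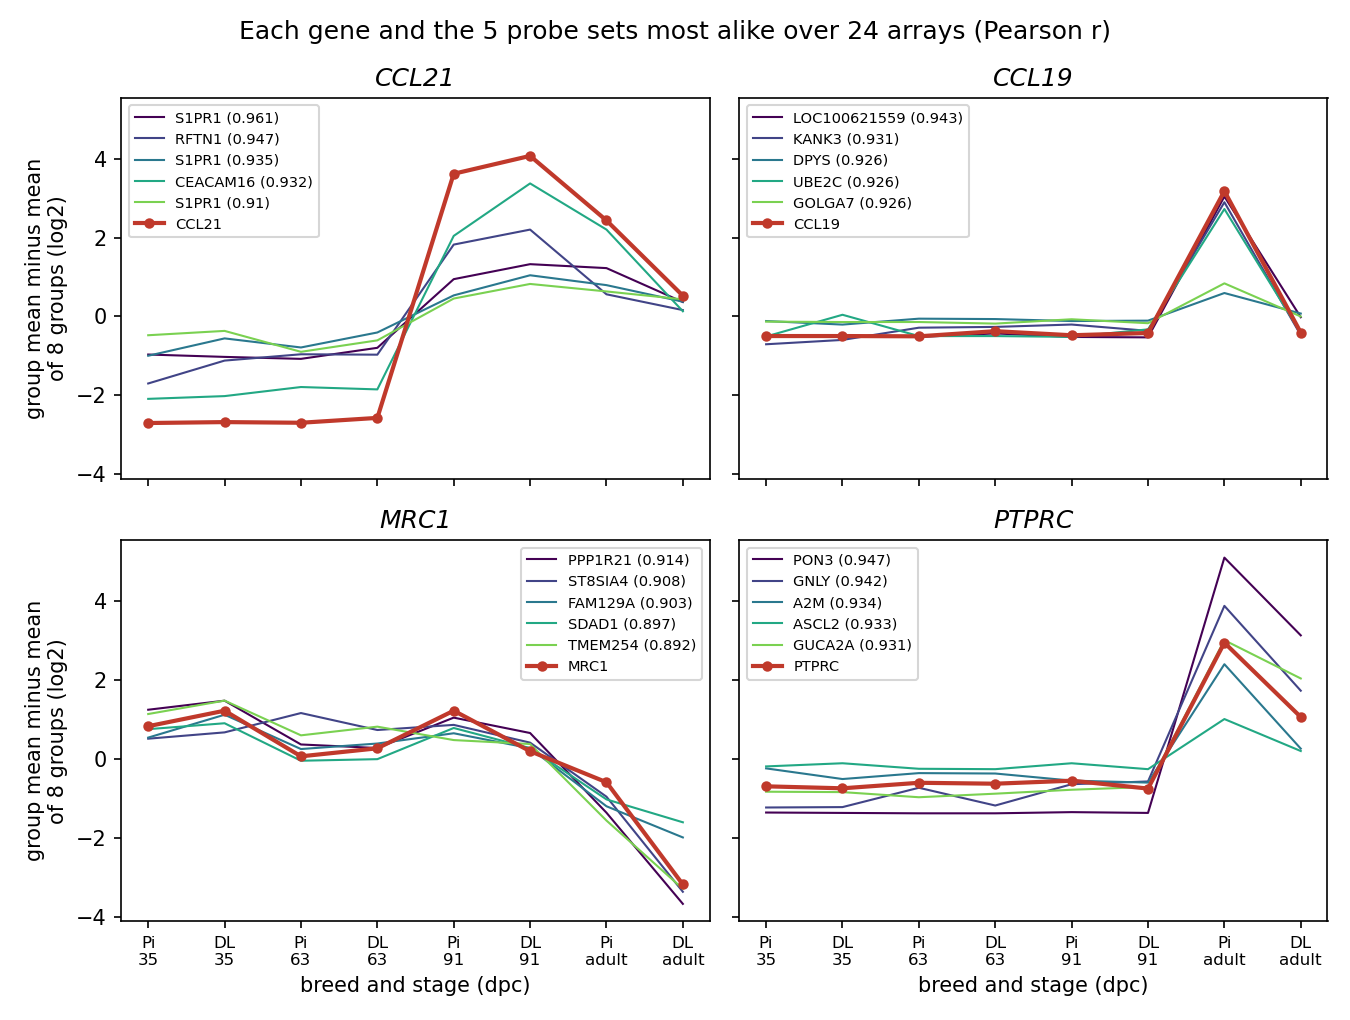
Group means of each gene (red, circles) and of its 5 most similar probe sets (thin lines, Pearson r over 24 arrays in the legend), as log2 distance from the mean of the 8 groups (vertical axis), with groups ordered by stage and Pi left of DL (horizontal axis). The companions of CCL19 peak in adult Pi, those of PTPRC in adults of both breeds with Pi the higher, and those of MRC1 are lowest in adult DL. They were picked for likeness to these genes, so the shared course follows from the picking.

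In the pig assembly Sscrofa11.1 of RefSeq CCL21 and CCL19 are direct neighbours among protein-coding genes. LOC110255597 comes next and had no probe set with its symbol. After it stands CCL27, another chemokine gene, which was above background on 0 of 24 arrays. IL11RA, the gene after it, was above background on all 24 and differed between adult breeds by -0.06 (limma, adjusted p = 0.921). The neighbours thus had unlike courses: CCL21 was bright at 91 dpc in both breeds, when CCL19 was at background in all 6 pools.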

How the data were processed

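RNA of 24 pools was hybridised to Affymetrix GeneChip Porcine Genome Arrays. The authors deposited a table of log2 intensities, 1 for each array at each probe set. The submitters' processing notes name GCOS 1.1.1; the probe summary method is not stated in the labels. The deposited log2 values were the same in all columns after sorting (median 5.43, 1.60 to 16.10), so they had been quantile-normalised. The log base was read as 2 from that range, and folds rest on it. Of 24123 probe sets 124 controls were left out. The array annotation gave 1 symbol to 10069, several to 198 and none to 13732; none was updated through RefSeq, where 9961 gene IDs matched.

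One limma 3.58.1 model (R 4.3.3) with a mean per group was fitted to all 24 arrays (16 residual and 1.31 prior degrees of freedom), two-sided, with Benjamini-Hochberg adjustment over 23999 probe sets and a threshold of 0.05; ± is a standard error. It was tested on simulated data that gave a probe set the same spread in every group. Such data cannot show the effect of a larger spread in adult pools. A bound sets the mean of the brighter group against the background ceilings. Single values were also tested by exact permutation. Precision is limited by 3 pools a group. Alternatives were a pool-letter block, fits on the groups compared, scaling to 27 hybridisation controls, a dim filter (above background on at least 3 arrays), a background floor, a trended robust prior, array weights, a GAPDH covariate and leaving out each pool. The genes named are the 4 members, up to 3 leading members of each list per comparison, the 5 probe sets most alike each member and the neighbours. Other genes (CXCR4 at 91 dpc, CCR7, CD163, SIGLEC1, MARCO, PTPRCAP, CORO1A, LYVE1 and PDPN between adult breeds, SPP1, LYVE1 and CTSS at 63 dpc) were named after their values were seen. Members and lists were chosen with earlier results of these data known. The letters of the pools did not pair them: deviations of the same letter correlated between -0.077 and 0.091. Figures used matplotlib 3.10.9 in Python 3.11.15. No sequence is printed.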

Additional observations from a re-analysis of the deposited data

Results flagged for a closer look

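For both chemokines limma's test of the difference between the breeds' steps from 91 dpc to adulthood passed in the fit of all 24 arrays. For CCL21 the step of Pi exceeded that of DL by 2.36 ± 0.46 on the log2 scale (adjusted p = 0.0117): it was -1.18 in Pi and -3.54 in DL. That call was lost on the arrays of 91 dpc and adults alone (2.36, limma, adjusted p = 0.181) and with the GAPDH covariate (1.80, adjusted p = 0.0997). For CCL19 it exceeded it by 3.64 ± 0.35 (adjusted p = 2.07e-05), with a signal in all 3 adult Pi pools and none above background in adult DL or in either breed at 91 dpc. The spread behind both values is pooled over all stages and understates that of adult pools.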

How the results depend on the processing

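Results are listed only where some group of the comparison was above background in all its pools. Of 850 values of the 4 genes under the alternatives, 789 kept their direction and side of the threshold, 38 lost the call, 13 gained it and 10 changed sign, all 10 with neither value past the threshold. No gene had another probe set to try.

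With only the arrays of the groups compared, the adult breed differences of CCL21 (1.91), CCL19 (3.59), MRC1 (2.59) and PTPRC (1.89), the adult step of PTPRC in DL (1.81) and the breed difference in the adult step of CCL21 (2.36) lost their calls, and MRC1 gained one between 63 and 35 dpc in DL (-0.96). The probe sets passing became 21 in place of 1519 between adult breeds, 16 in place of 653 at 91 dpc, 11 in place of 329 at 63 dpc and 80 in place of 638 for the breed difference in the adult step.

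Scaling to hybridisation controls moved the median of all probe sets by -0.81 between 63 and 35 dpc, -1.08 between adults and 35 dpc and 0.51, -0.32 and -0.22 between breeds at 35 dpc, at 91 dpc and in adults. It turned MRC1 between breeds at 35 dpc (0.11), MRC1 in the breed difference between 63 and 35 dpc (-0.43), and PTPRC between 91 and 63 dpc in Pi (-0.20), in the breed difference of that step (-0.03) and between breeds at 91 dpc (-0.12). MRC1 gained calls between 63 and 35 dpc (-1.89 in Pi, -1.45 in DL) and lost the one over the mean of stages (0.72). The probe sets passing became 17663 in place of 10611 between 63 and 35 dpc, and 8423 in place of 966 at 35 dpc, 212 in place of 329 at 63 dpc and 2550 in place of 653 at 91 dpc between breeds, and 378 for the breed difference in the adult step.

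Array weights ended the call of PTPRC between adult breeds (1.82) and gave one to PTPRC over the mean of stages (0.51) and to MRC1 between 63 and 35 dpc in Pi (-0.66) and DL (-0.96) and between 91 and 63 dpc in Pi (1.03). The probe sets passing between breeds became 3156, 1000, 1285 and 242 at 35, 63 and 91 dpc and in adults, and 174 for the breed difference in the adult step. The GAPDH covariate ended the calls of MRC1 between 63 and 35 dpc (-0.78), adults and 91 dpc (-1.90, and -0.95 in Pi), adults and 35 dpc (-2.17) and over the mean of stages (0.63), of PTPRC in the adult step of DL (1.83) and of CCL21 in its breed difference (1.80). The probe sets passing became 5270 in place of 13772 between adults and 91 dpc (3848 in place of 11466 in Pi, 6446 in place of 10890 in DL), 8378 in place of 15964 between adults and 35 dpc, 280 at 91 dpc and 621 in place of 1509 over the mean of stages between breeds, and 324 for the breed difference in the adult step. The causes of these changes were not tested.

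With 1 pool left out, MRC1 between 63 and 35 dpc ran between -0.97 and -0.73. Between the breeds over the mean of stages MRC1 ran between 0.66 and 0.94, CCL21 between 0.25 and 0.46 (called without adult DL pool c) and PTPRC between 0.44 and 0.71 (called without adult DL pool b or adult Pi pool a). The breed difference in the adult step ran between 1.17 and 2.32 for MRC1 and between 1.28 and 2.38 for PTPRC. Values near 0 changed sign for MRC1 between 91 and 63 dpc in DL (-0.22 to 0.07), between breeds at 63 dpc (-0.43 to 0.06) and in the breed difference between 63 and 35 dpc (-0.03 to 0.46), and for PTPRC between 91 and 63 dpc in Pi (-0.03 to 0.10). The probe sets passing ran between 248 and 1257 for breeds at 91 dpc, 163 and 388 at 63 dpc, 581 and 846 at 35 dpc, and 353 and 945 for the breed difference in the adult step. The pool letter as a replicate block changed no call, MRC1 between 63 and 35 dpc remaining at -0.86 (limma, adjusted p = 0.0268). The dim filter, the background floor and the trended robust prior changed no call or direction of the 4 genes.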
